A study of Callithrix jacchus with 3 samples.

Results

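Genes that cap chromosome ends were examined in common marmoset cells labelled as extended pluripotent stem cells. The set was named as 10 genes of telomere capping and telomerase, and its members are the rows of the count tables whose Ensembl gene ID carries one of those symbols in the name table used. IDs for 6 of the 10 were found among 30811 gene rows, namely TERF2, TERF2IP, POT1, TINF2, ACD and RTEL1. No row carried the symbol TERT, TERF1, NOP10 or NHP2, so these 4 genes were not analysed here, and whether the cells express them cannot be read from the values given. The name table holds these 4 symbols, but with IDs that are not among the count rows. A row without a symbol could still hold any of them. The values given here therefore describe capping, through 5 of the 6 shelterin genes and the helicase gene RTEL1. They do not cover the telomerase subunits named in the set.

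RNA was sequenced from 3 libraries of 1 group, labelled extended pluripotent stem cell and called EPSC-like in the design text. The study's title says that the cells came from attempts to convert embryonic stem cells of the marmoset, a New World monkey. The sources used here give no genotype, treatment, age, medium or passage, and no parental or control cells were analysed here, so the question open to the data is how strongly each gene was read out and how far the libraries differed. All 3 titles share the label No40, whose meaning is not given, and separate cultures or lines are not mentioned. The p-values against a level therefore rest on how far these 3 libraries varied, possibly for technical reasons, pooled with a trend over genes. Those for a pair of libraries rest on counting error alone.

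Chromosome ends of vertebrates carry a repeated sequence that a 6-protein complex, shelterin, covers so that the end is not treated as a DNA break. TRF1 and TRF2, encoded by TERF1 and TERF2, bind the double-stranded repeat, RAP1 (TERF2IP) joins through TRF2, TIN2 (TINF2) bridges the parts, and TPP1 (ACD) carries POT1, which binds the single-stranded overhang. TPP1 also recruits telomerase, the enzyme that adds repeats, and pluripotent stem cells are known for keeping telomerase active.

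All 6 genes were called above 1 CPM (counts per 1000000 counts, after scaling by TMM factors) by the edgeR quasi-likelihood test with Benjamini-Hochberg adjustment over all 23432 genes with a count. Of all genes tested, 56.0% were called above that level, so the call says little about these genes as a set. CPM is not corrected for gene length and no lengths of the counted gene models were used here. The values of the 6 genes are therefore compared between libraries and not with each other. The libraries held between 40593244 and 55224475 counts, replicate 3 being the smallest. At this depth the least counted value of a member was 410 counts. Replicate 3 stood apart from the other libraries. Over genes above 1 CPM, log2 ratios had an SD of 0.142 for replicates 1 and 2, of 0.504 for 1 and 3 and of 0.508 for 2 and 3. Of the pluripotent stem cell markers, 8 of 8 mapped genes were above 1 CPM, with summed levels of 6504, 6698 and 6418 CPM in replicates 1, 2 and 3. The sum is dominated by DNMT3B and hides unlike values in replicate 3. SALL4 had 135, 134 and 58.5 CPM, LIN28A 674, 725 and 350.3 CPM and LIN28B 742, 774 and 470.0 CPM, while POU5F1 had 974, 972 and 1185 CPM and EPCAM 803, 800 and 1032 CPM.

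**Figure D1:**
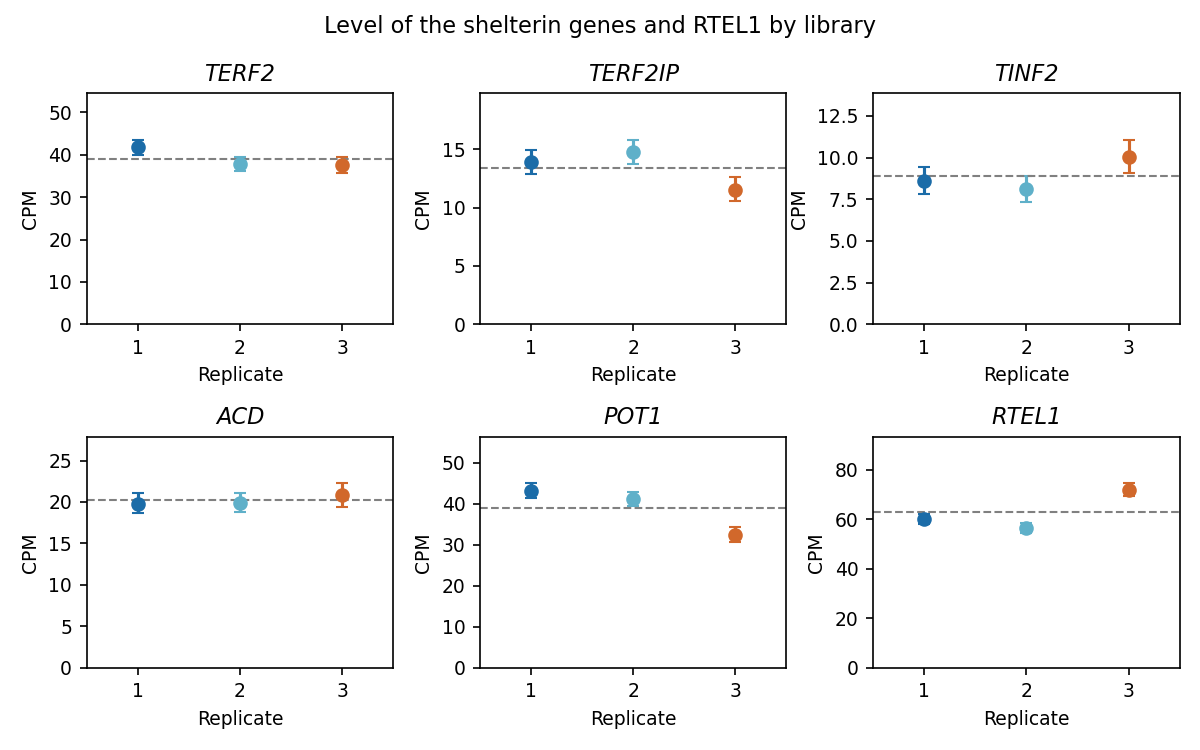
CPM (vertical axes, from 0) of TERF2, TERF2IP, TINF2, ACD, POT1 and RTEL1 in replicates 1, 2 and 3 of the EPSC-like group. Points are libraries, bars the 95% exact Poisson interval, which covers counting error only, and dashed lines the mean of the 3 libraries. POT1 and TERF2IP were lowest, and RTEL1 and TINF2 highest, in replicate 3.

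TERF2 encodes the shelterin protein that keeps ends from being joined to each other. It had 2185, 2074 and 1535 counts in replicates 1, 2 and 3, or 41.8, 37.7 and 37.6 CPM. Replicate 1 was the highest, and the other two lay close together. The mean was 39.0 ± 2.36 CPM (SD, n = 3). The level was above 1 CPM with an adjusted p of 1.18e-11 (edgeR quasi-likelihood).

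Between replicates 1 and 2, TERF2 differed by 1.11-fold (95% interval 1.04 to 1.18), with an adjusted p of 0.0204 by the exact conditional binomial test over all genes. It was the only member for which these 2 libraries differed by that p alone. Between replicates 2 and 3 the ratio was 0.998 (95% interval 0.934 to 1.07). TERF2 thus did not share the step between replicate 3 and both other libraries that TERF2IP, POT1 and RTEL1 showed.

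TERF2IP encodes RAP1, which reaches telomeres by binding TRF2. Its counts were 726, 812 and 471, or 13.9, 14.8 and 11.6 CPM, with a mean of 13.4 ± 1.66 CPM (SD, n = 3; adjusted p against 1 CPM of 2.25e-09, edgeR). Replicate 3 was the lowest. The ratio of replicate 3 to replicate 1 was 0.832 (95% interval 0.740 to 0.936), and that of replicate 3 to replicate 2 was 0.782 (0.697 to 0.877). Their adjusted p-values by the exact conditional binomial test were 0.00528 and 6.93e-05. Both ratios contain replicate 3 and are not independent of each other. Replicates 1 and 2 were not distinguished (ratio of replicate 2 to replicate 1 of 1.06, 95% interval 0.962 to 1.18).

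TINF2 encodes TIN2, the bridge between the double-strand binders and TPP1. It had the lowest counts of the members, 451, 445 and 410, which gave 8.62, 8.09 and 10.1 CPM and a mean of 8.92 ± 1.01 CPM (SD, n = 3; adjusted p against 1 CPM of 1.53e-08, edgeR). Here replicate 3 was the highest. The ratio of replicate 3 to replicate 2 was 1.24 (95% interval 1.08 to 1.42; adjusted p = 0.00457, exact conditional binomial test). That of replicate 3 to replicate 1 was 1.17 (1.02 to 1.34) and did not pass (adjusted p = 0.0571, same exact test).

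ACD encodes TPP1, the partner of POT1 and the part of shelterin that telomerase contacts. Its counts were 1036, 1095 and 849, or 19.8, 19.9 and 20.8 CPM. These were the most even values among the members, with a mean of 20.2 ± 0.56 CPM (SD, n = 3; adjusted p against 1 CPM of 1.43e-10, edgeR). No pair of libraries was distinguished for ACD. The widest of the 3 ratios was that of replicate 3 to replicate 1, at 1.05 (95% interval 0.959 to 1.15; adjusted p = 0.454, exact conditional binomial test).

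POT1 encodes the protein that covers the single-stranded overhang. It had 2260, 2265 and 1325 counts, or 43.2, 41.2 and 32.5 CPM, and a mean of 39.0 ± 5.69 CPM (SD, n = 3; adjusted p against 1 CPM of 3.97e-11, edgeR). Replicate 3 was the lowest, and its 95% Poisson interval of 30.8 to 34.3 CPM did not reach those of replicate 1 (41.4 to 45.0 CPM) and replicate 2 (39.5 to 42.9 CPM). POT1 was 1.33-fold lower in replicate 3 than in replicate 1 (95% interval 1.24 to 1.42; adjusted p = 6.74e-16, exact conditional binomial test). Against replicate 2 it was 1.27-fold lower (1.18 to 1.36; adjusted p = 2.61e-11, same exact test). Relative to its mean, POT1 had the largest spread among the members. Replicates 1 and 2 were not distinguished for POT1 (adjusted p = 0.428, exact conditional binomial test).

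RTEL1 encodes a helicase that unwinds the telomere loop and other DNA structures so that ends can be copied, and is not a part of shelterin. It had 3142, 3112 and 2932 counts, or 60.1, 56.6 and 71.9 CPM, with a mean of 62.9 ± 8.03 CPM (SD, n = 3; adjusted p against 1 CPM of 5.51e-12, edgeR). Replicate 3 was the highest, and its interval of 69.3 to 74.5 CPM lay above those of the other libraries. The ratio of replicate 3 to replicate 1 was 1.20 (95% interval 1.14 to 1.26; adjusted p = 1.50e-11, exact conditional binomial test) and that of replicate 3 to replicate 2 was 1.27 (1.21 to 1.34; adjusted p = 1.36e-19, same exact test). RTEL1 thus differed in the direction opposite to POT1 in the same library.

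**Figure D2:**
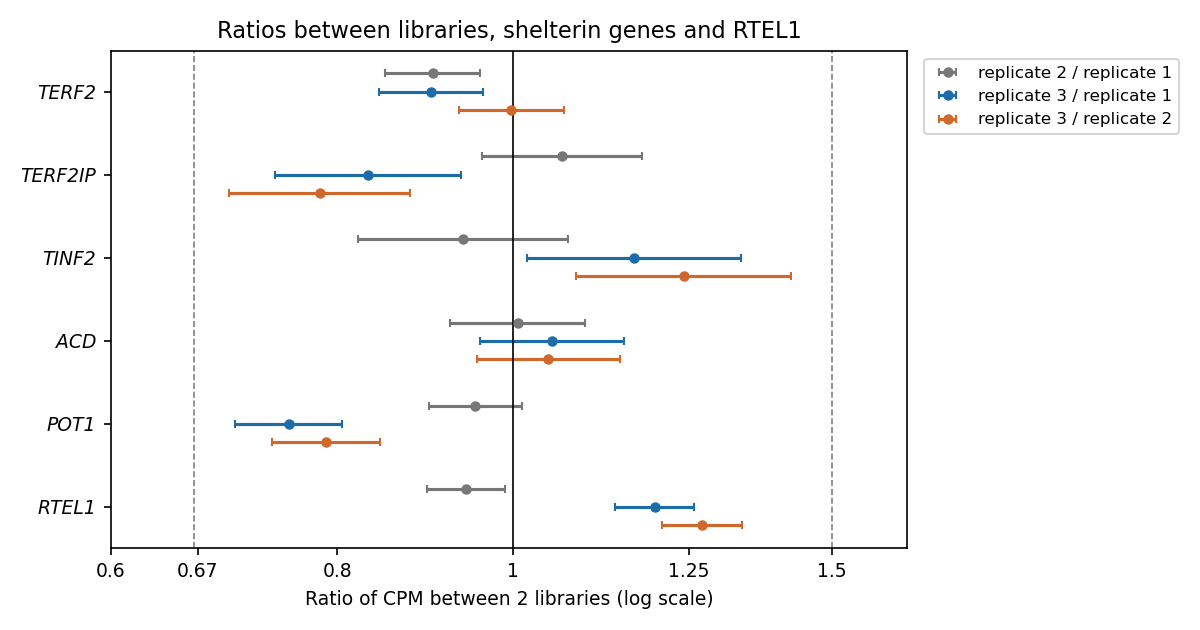
Ratio of CPM between each pair of libraries (horizontal log axis) for the 6 genes. Points are ratios, bars the 95% exact binomial interval of counting error, the solid line equal levels, and the dashed lines a 1.5-fold difference in either direction. All 18 intervals lie between the dashed lines, from 0.697 to 1.42.

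A pair of libraries was called different for a gene when the exact conditional binomial test gave an adjusted p under 0.05 and the levels differed by at least 1.5-fold. By that rule 0 of 6 members differed between replicates 1 and 2, where 1.07% of all genes did. Between replicates 1 and 3 it was 0 of 6 against 16.3% of all genes and 18.8% of those above 1 CPM, and between replicates 2 and 3 it was 0 of 6 against 16.8% and 19.5%. With only 6 genes, a count of 0 is near what those shares give, and it does not set these genes apart.

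Without the fold requirement, 5 of the 6 genes had an adjusted p under 0.05 in at least 1 pair, ACD being the exception. The share of all genes passing in at least 1 pair was not computed. Between replicates 2 and 3 alone, 72.2% of genes above 1 CPM passed, so 5 of 6 does not set the members apart. Between replicates 1 and 3 there were 4, with TERF2, TERF2IP and POT1 lower and RTEL1 higher in replicate 3. Of all genes 45.9% passed, 24.9% lower and 21.0% higher, and of genes above 1 CPM 71.7%. Between replicates 2 and 3 there were 4, with TERF2IP and POT1 lower and TINF2 and RTEL1 higher. Of all genes 46.3% passed, 25.1% lower and 21.2% higher, and of genes above 1 CPM 72.2%. Between replicates 1 and 2 there was 1, TERF2, beside 6.85% of all genes and 10.8% of those above 1 CPM. At an unadjusted p under 0.05 the counts were 5, 4 and 2 for the pairs 1 and 3, 2 and 3, and 1 and 2. The share of all genes at that unadjusted p was not computed, so these counts do not set the members apart. The 95% intervals bound the differences more closely than the calls do. All 18 pairwise ratios had intervals inside 1.5-fold, from a lower bound of 0.697 to an upper bound of 1.42, as far as counting error goes.

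The coefficient of variation (SD divided by mean) over the 3 libraries ran from 2.77% for ACD and 6.04% for TERF2 through 11.4% for TINF2, 12.4% for TERF2IP and 12.8% for RTEL1 to 14.6% for POT1. Its median over the 6 genes was 11.9%, beside 12.4% over all 13129 genes above 1 CPM. ACD stood at percentile 6.65 of those genes, TERF2 at 21.7 and POT1 at 58.3. The members thus lay in the lower and middle part of the range. The median log2 ratio of replicate 3 to replicate 1 was −0.04 for the 6 genes and −0.05 for genes above 1 CPM.

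**Figure D3:**
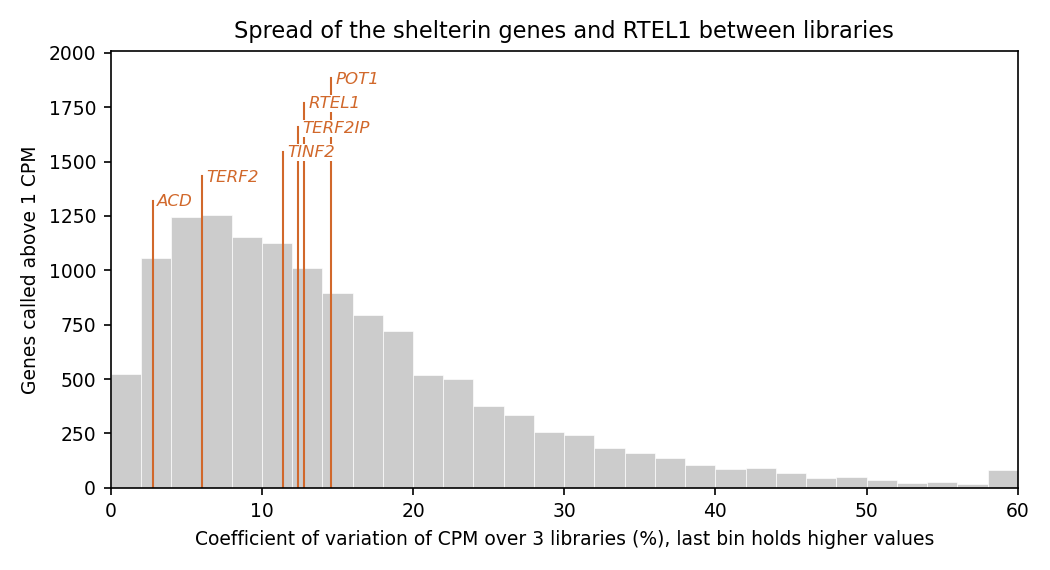
Number of genes above 1 CPM (vertical axis) by the coefficient of variation of their CPM over 3 libraries (horizontal axis, %), with the 6 genes marked by lines whose height has no meaning. The lines run from 2.77% for ACD to 14.6% for POT1, and the median of the genes in the histogram is 12.4%.

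Shelterin proteins work in pairs, and the ratio of 2 genes within a library removes its depth. The ratio itself depends on the lengths of the 2 genes, but the step in it from one library to another does not. The ratio of POT1 to its partner gene ACD was 2.18 and 2.07 in replicates 1 and 2 and 1.56 in replicate 3, a step of 1.40-fold and 1.33-fold down in that library. The ratio of TERF2IP to TERF2, whose proteins bind each other, was 0.332, 0.392 and 0.307, so that replicate 2 was the highest and the other libraries were closer. The ratio of TINF2 to ACD was 0.435, 0.406 and 0.483, and that of TINF2 to TERF2 was 0.206, 0.215 and 0.267, each highest in replicate 3. The summed level of the 5 shelterin genes was 127, 122 and 113 CPM, with a mean of 120.5 ± 7.42 CPM (SD, n = 3), and was 0.884 times as high in replicate 3 as in replicate 1. POT1 and TERF2 weigh most in that sum, which is not corrected for gene length. The lower sum does not hold for each gene, as TINF2 and ACD were not lower in replicate 3. No test was made of these ratios and sums, and with 3 libraries of 1 group none could compare conditions.

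Summed markers of other cell types were also lowest in replicate 3. The sums over 8 mapped mesenchyme and fibroblast genes, all above 1 CPM, were 797, 745 and 553 CPM in replicates 1, 2 and 3. COL1A1 made up most of them, at 546, 516 and 404 CPM. VIM had 84.2, 76.6 and 35.1 CPM. DCN, called above 1 CPM over all libraries, had 9.25, 9.71 and 0.981 CPM. TAGLN alone of the 8 was not lowest in replicate 3, at 63.7, 61.0 and 62 CPM. Over 5 mapped endoderm genes, of which 3 were above 1 CPM and AFP had no counts, the sums were 17.2, 18.0 and 8.93 CPM. Over 4 mapped trophectoderm genes, of which 2 were above 1 CPM, they were 20.6, 20.9 and 12.3 CPM, and CDX2 and TP63 were at 0 in replicate 3. The lower trophectoderm sum came mainly from TFAP2A, at 12.3, 12.1 and 2.45 CPM, while KRT7 was highest in replicate 3 at 7.80, 8.24 and 9.86 CPM. The lower endoderm sum came mainly from GATA6, at 7.32, 8.06 and 0.49 CPM. The endoderm gene APOA1 was not lowest in replicate 3, at 5.12, 3.53 and 4.41 CPM. In the same library POT1 and TERF2IP were lowest, and RTEL1 and TINF2 were highest. TERF2 was also lowest there and ACD highest, but neither gene was distinguished between replicates 2 and 3. The part of these cells in the differences was not tested. In bulk RNA, fewer cells of a type and less RNA per cell cannot be told apart.

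Overlap was read from RefSeq gene spans, not from the counted Ensembl genes, and without regard to strand or exons. The strand setting of the counting is not given in the sources used here. Whether reads of overlapping genes entered a count can therefore not be told. In the RefSeq annotation of the assembly calJac240_pri, TERF2 and POT1 overlapped no other gene. TINF2 overlapped GMPR2, which had 8422, 8465 and 7494 counts, many more than TINF2. ACD overlapped CARMIL2, with 2782, 2870 and 2963 counts, RTEL1 overlapped TNFRSF6B, and TERF2IP overlapped a pseudogene. The levels of TINF2, ACD, RTEL1 and TERF2IP may be uncertain for that reason, which was not tested.

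The members were set beside 62 other telomere genes, the mapped ones of 76 listed. Of the 62, 59 were above 1 CPM, 2 below and 1 not distinguished from it. Of all genes tested, 56.0% were above that level, and the difference from these chosen lists was not tested. TERB1 (7, 2 and 2 counts) and MAJIN (0, 17 and 4 counts), which attach telomeres to the nuclear envelope in meiosis, were below, and KASH5, of the same attachment, was at 1.31 ± 0.16 CPM (SD, n = 3). The partner genes of the unmapped telomerase subunits were mapped in part. DKC1, the pseudouridine synthase of the telomerase particle, had 92.1, 91.3 and 101.3 CPM by replicate, and WRAP53, which carries telomerase to Cajal bodies, at 88.5, 87.8 and 99.7 CPM. Both were above 1 CPM, and neither differed by 1.5-fold between any pair. GAR1 and STN1 were not mapped.

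The 1.5-fold rule called 11 of the 62 genes between replicates 1 and 3, or 17.7%, close to the 16.3% of all genes. Of these, 10 were lower in replicate 3 and 1 was higher, where 10.1% of all genes were lower and 6.14% higher. That split depends on the fold requirement. Without it 30 of the 62 were lower and 17 higher, beside 24.9% and 21.0% of all genes. In either direction that was 75.8% of the 62, beside 45.9% of all genes and 71.7% of those above 1 CPM. Most of the 62 were above 1 CPM, so the last share is the nearer one. RECQL4 and MUS81, at 1.496-fold and 1.473-fold higher in replicate 3, fell just short of 1.5-fold. Between replicates 2 and 3, a comparison that shares replicate 3, it called 11, with 10 lower and 1 higher, where 10.2% of all genes were lower and 6.64% higher. The only call between replicates 1 and 2 was MAJIN, which was lost with halved counts and when genes of low counts were left out. POLA1, the catalytic subunit of the polymerase that fills in the strand opposite the overhang, stood at 122.7, 122.8 and 61.2 CPM, 2.01-fold lower in replicate 3 than in either other library (adjusted p = 4.19e-206 and 2.97e-210, exact conditional binomial test). NR2C2, a nuclear receptor gene, stood at 21.3, 22.7 and 10.1 CPM and was 2.11-fold and 2.25-fold lower. TEN1, of the CST complex that works with that polymerase, was the gene that was higher, at 5.91, 5.71 and 8.88 CPM. CTC1 of the same complex stood at 18.6, 18.9 and 24.1 CPM and did not reach 1.5-fold. TNKS and TNKS2, which encode the tankyrases that release TRF1 from telomeres, were both called, with TNKS at 102, 104 and 52.0 CPM and TNKS2 at 178, 182 and 109 CPM.

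**Figure D4:**
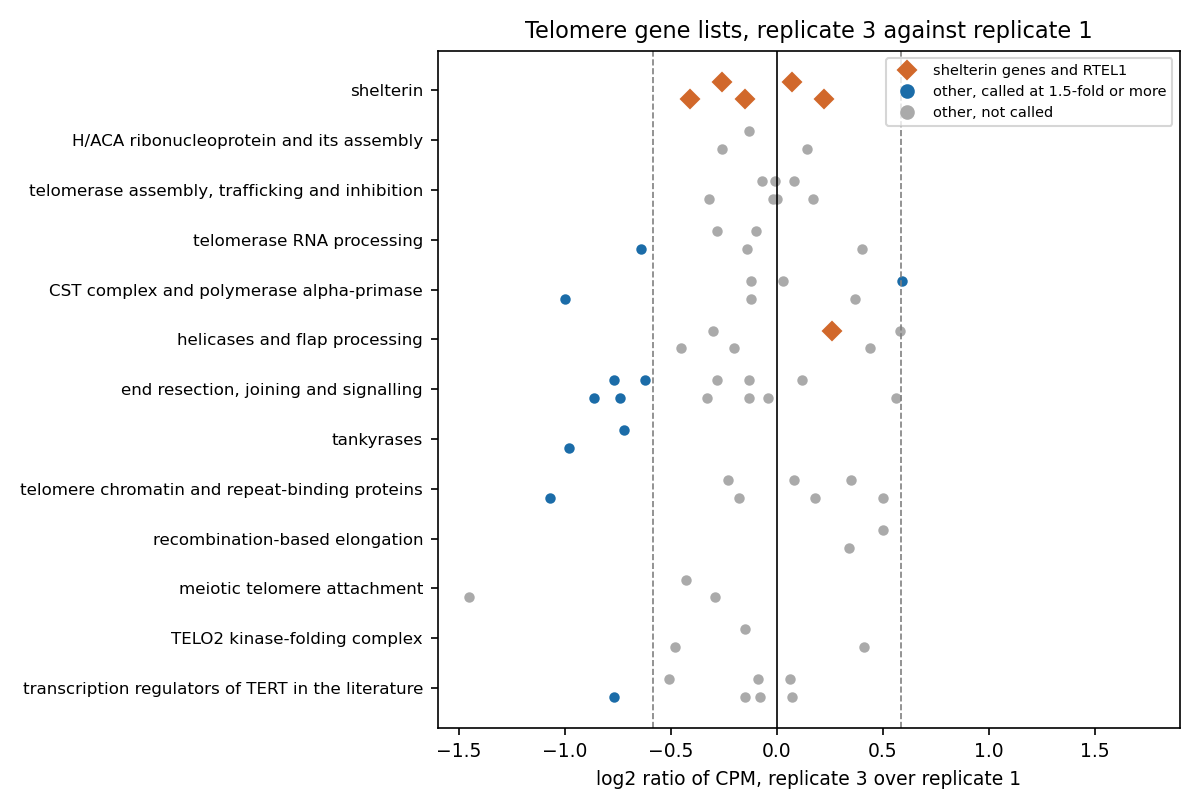
log2 ratio of CPM in replicate 3 over replicate 1 (horizontal axis) for the mapped genes of the telomere lists (vertical axis), with dashed lines at 1.5-fold. Diamonds are the 5 shelterin genes and RTEL1, blue points other genes called and grey points other genes not called, and MAJIN, with no counts in replicate 1, is left out. The diamonds lie between the dashed lines, and 10 of the 11 called genes lie to the left of them.

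Most other lists are given by the gene of highest and of lowest mean CPM (± SD, n = 3), which also reflect gene length. Among the helicases listed with RTEL1, DNA2 stood at 119 ± 11.9 and RECQL4 at 57.3 ± 13.0 CPM. For the genes of H/ACA particle assembly the range was from DKC1 at 94.9 ± 5.52 to SHQ1 at 25.8 ± 1.30 CPM, and for telomerase assembly from RUVBL1 at 269 ± 2.62 to COIL at 33.8 ± 2.28 CPM. Telomerase RNA processing ran from EXOSC10 at 87.9 ± 4.13 to ZCCHC8 at 39.3 ± 4.19 CPM. In the CST and polymerase list POLA1 was highest and TEN1 lowest, and in the meiotic list SUN1 was highest at 118 ± 20.6 CPM and TERB1 lowest. These lists held genes of even level and genes that differed between libraries.

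End resection, joining and signalling genes ran from XRCC5, of the Ku heterodimer, at 1062 ± 57.5 to ERCC4 at 11.3 ± 2.58 CPM, and 4 of its 11 mapped genes were called lower in replicate 3 than in replicate 1, where 10.1% of all genes were. These were ERCC4 and, named after their values were seen, PRKDC, ATM and ATR, with PRKDC 1.67-fold and ATR 1.82-fold lower. Telomere chromatin genes ran from SETDB1 at 95.1 ± 9.70 to HMBOX1 at 4.62 ± 0.47 CPM. The TELO2 complex ran from TTI1 at 85.0 ± 15.4 to TTI2 at 25.6 ± 1.48 CPM, and the genes described in the literature as regulators of TERT ran from CTNNB1 at 309 ± 58.3 to MXD1 at 6.56 ± 0.59 CPM. The presence of regulators says nothing of TERT, which was not analysed here.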

How the data were processed

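Each library has 1 deposited file of raw, whole-number counts for Ensembl gene IDs, which the authors did not normalize. The submitters' processing notes name featureCounts 1.5.2, STAR 2.5.3a and Trim Galore 0.4.0. Build, annotation release, strand setting and handling of multiply mapped reads: not given in the sources used here. All rows were gene IDs, and 12660 of 30811 had a symbol in the name table.

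TMM scaling and model fits used edgeR 4.0.16 in R 4.3.3. For the 23432 genes with any count, the level was compared with 1 CPM, two-sided, by the F statistic of an intercept-only quasi-likelihood fit with trended dispersion, adjusted by Benjamini-Hochberg. The prior degrees of freedom were 4.68. Pairs of libraries were compared by a two-sided exact conditional binomial test, which compares those libraries and no conditions. Its intervals and the Poisson intervals were computed from the counts alone and cover counting error only. The reads carry no molecular identifiers. If both mates of a pair were counted, the intervals given are too narrow. Python 3.11.15, scipy 1.17.1 and matplotlib 3.10.9 were used. Both tests were tested on simulated data. Those for pairs had counting error only, as the test assumes, and those for levels had less spread than the common estimate here. They check the computation and not whether the assumptions hold in these data.

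The members and lists were chosen with earlier results of these data known. Genes named beyond the members are each list's highest and lowest by mean CPM, those below or not distinguished from 1 CPM, those differing at least 2-fold between libraries, and DKC1, GAR1, WRAP53, CTC1, STN1 and TEN1. PRKDC, ATM and ATR, with RECQL4 and MUS81 as genes just short of the fold requirement, were named after their values were seen. The values of 1 list are not reported here. TNKS and TNKS2 are also 1 list's only genes. Alternatives were DESeq2 1.42.0 (size factors, test), total counts, filterByExpr, levels of 0.5 and 2 CPM, halved counts, other fold requirements and leaving out each replicate.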

Additional observations from a re-analysis of the deposited data

How the results depend on the processing

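All 6 members were above 1 CPM under each of the 10 alternatives to that call, and all 30 recomputed member means lay within 1 SD of the value given. A mean of 3 libraries cannot move by 1 SD when 1 is left out, so that part of the check could not fail. Other scaling could change little, as the TMM factors ran only from 0.9957 to 1.005. The fold requirement decided the pair calls. Without it, 1, 4 and 4 members differed between replicates 1 and 2, 1 and 3, and 2 and 3, in place of 0. Of the 62 other telomere genes, 8, 47 and 47 then differed in place of 1, 11 and 11, and of all genes 1606, 10760 and 10859 in place of 250, 3811 and 3935. With at least 2-fold required, 2 and 2 of the 62 differed for the pairs with replicate 3, and 157, 1859 and 1918 of all genes. With halved counts or filterByExpr, 0 of the 62 differed between replicates 1 and 2, and with halved counts 9 of all genes. These changes follow from the rule or from fewer counts or genes tested. Fits on 2 libraries used the trended spread for every gene. Levels per coding length and the pattern nearest to TERT were not run, as no gene lengths and no row mapped to TERT were at hand. No paired analysis was possible because only 1 group exists. The comparison of the 62 genes between libraries under these alternatives, and the ratios of partner genes, were chosen after seeing the data.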
